A study of Homo sapiens with 4 samples.

Results

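The genes described here are IL7R, FLT3, the 4 JAK kinase genes JAK1, JAK2, JAK3 and TYK2, the pair STAT5A and STAT5B, and the STAT5 targets CISH and PIM1, taken by symbol from a count table of 28814 genes. All 10 had a row and all 10 passed the filter on low counts, which left 16862 genes. The RNA came from the established human line 697, a B-cell precursor acute lymphoblastic leukaemia, with 2 libraries of cells exposed for 24 h to 1 µM MZ1 and 2 of cells given an equal volume of DMSO, the solvent. MZ1 is a degrader molecule: one end binds the bromodomains of BET proteins and the other recruits the VHL ubiquitin ligase. All libraries came from 1 line, and the labels leave unsaid whether replicates were grown separately, so a p-value speaks only to how far these particular libraries scatter, possibly for technical reasons.

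In B-cell precursors, interleukin-7 binds a receptor made of the IL7R chain and the common gamma chain. JAK1 sits on IL7R and JAK3 on the gamma chain. The active kinases phosphorylate STAT5A and STAT5B, which enter the nucleus and switch on genes such as CISH and PIM1. FLT3 is a receptor tyrosine kinase of early blood progenitors that carries its own kinase domain, and its activated mutant forms can also signal to STAT5.

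The receptor and STAT5 transcripts fell with MZ1, whereas 3 of the 4 JAK transcripts and PIM1 rose. IL7R, FLT3, STAT5A and STAT5B were lower, JAK1, JAK2, TYK2 and PIM1 were higher, and JAK3 and CISH did not pass the test (edgeR's quasi-likelihood test, adjusted p below 0.05 over all tested genes). Thus 8 of 10 genes were called, or 80.0%, beside 84.2% of all 16862 tested genes, so the share called is near the background. Higher calls made up 42.8% and lower calls 41.3% of all tested genes, and 4 of the 10 went each way. The median log2 fold change (MZ1 over DMSO) was 0.12 for the 10 genes and 0.05 for all tested genes. The 2 MZ1 libraries lay on one side of both DMSO libraries for 9 of the 10, JAK3 being the exception, beside 91.3% of all tested genes. With 2 libraries a group, the smallest two-sided exact permutation p is 0.333, so no permutation test is given, and edgeR shares its estimate of spread among genes.

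**Figure D1:**
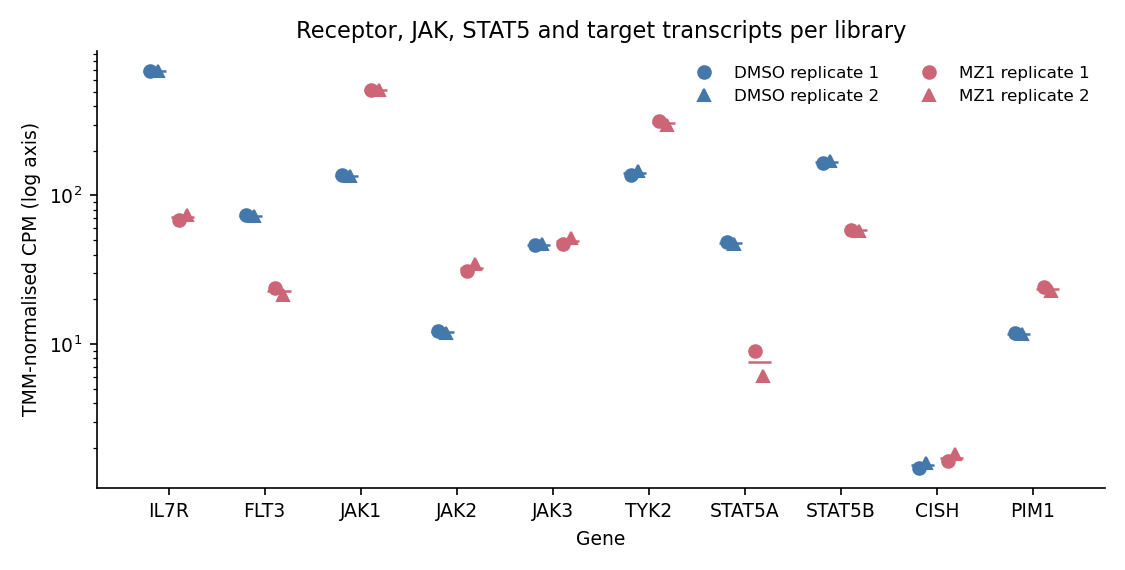
TMM-normalised counts scaled to library size (CPM, log axis) of each gene in the 4 libraries, with DMSO in blue, MZ1 in red, replicate 1 as circles, replicate 2 as triangles and a line at each group's mean. The largest gap between replicates is that of STAT5A with MZ1, at 8.91 and 6.14 CPM, and the JAK3 points of the 2 groups overlap.

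Libraries held 14246367 to 16488005 counted reads. CPM expresses a gene's reads relative to its library after TMM scaling, and the labels name no spike-in, so no level here is an amount per cell. In such bulk samples fewer cells of a type and less RNA per cell cannot be told apart. Mitochondrially encoded genes took 5.48% to 5.82% of DMSO reads and 8.98% to 9.26% of MZ1 reads, and replication-dependent histone genes at most 0.0144% and then 1.06% to 1.08%. B-cell precursor markers were present with both treatments. All 15 listed genes were tested, with a summed level of 4484 to 4507 CPM with DMSO and 1541 to 1591 CPM with MZ1. Of these 13 were lower and 1 higher, beside 41.3% lower and 42.8% higher of all tested genes. Of 12 T and NK cell markers 6 had a row, with a summed level of 23.8 to 25.1 CPM with DMSO and 7.95 to 8.63 CPM with MZ1, and the CD3D, CD3E, CD3G, CD2, CD7 and CD4 genes had none. Of 11 myeloid markers 7 had a row and 5 of 6 tested were higher, beside 42.8% of all tested genes. The other, the receptor gene CSF1R, was 5.53-fold lower, going from 5.62 and 4.66 CPM with DMSO to 0.99 and 0.87 CPM with MZ1. Of the 6 tested, 2 had 0 reads in 1 of the groups. Genes that passed the filter only through their MZ1 level had to differ. The summed level of the myeloid markers went from 5.31 to 6.66 CPM up to 121 to 129 CPM. The Fc receptor gene FCGR1A alone gave 96.5 and 101 CPM of the MZ1 sums. It shares 24.6% of its exonic length with other genes, among them the histone gene H2BC18, and reads cannot be told apart there. How many of the FCGR1A reads came from histone RNA was not tested. Of the myeloid-defining genes, MPO had 0 DMSO reads and 141 and 96 MZ1 reads, while CD33, ELANE, S100A8 and S100A9 had no row. Of 9 erythroid markers 6 had a row, and their summed level was 0.31 and 0.65 CPM with DMSO and 4.95 and 5.06 CPM with MZ1. The 1 tested, the haem synthesis gene ALAS2, was 8.34-fold higher. That fold is uncertain, because its DMSO level was at most the 0.31 and 0.65 CPM of the sums. Its log2 fold change of 3.06 became 2.41 without DMSO replicate 1 and 4.36 without DMSO replicate 2. ALAS2 passed the filter through its MZ1 level, so it too had to differ. The part of these markers in the results below was not tested.

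IL7R encodes the ligand-binding chain of the interleukin-7 receptor and lies on chromosome 5 at 35852695 to 35879603 (GRCh38, plus strand). It stood at 689 and 692 CPM in the DMSO libraries and at 68.9 and 74.4 CPM in the MZ1 libraries. Both MZ1 values lay far below both DMSO values, and the gene fell by 3.27 ± 0.05 (SE) on the log2 scale, or 9.64-fold (edgeR adjusted p = 2.43e-26). Levels of different genes were compared per length, as TMM-normalised CPM per kilobase of exon (RPKM). On that scale IL7R was the most abundant of the 10 transcripts with DMSO, at 114 RPKM, and took rank 291 of the 16862 tested genes. With MZ1 it was at 11.8 ± 0.64 RPKM (SD, n = 2) and rank 3538. Among 1397 protein-coding genes of similar mean level, those whose centred log2 CPM over the 4 libraries was nearest to IL7R were SLC7A5, an amino acid transporter gene (root-mean-square difference 0.05), the D cyclin gene CCND3 (0.06) and the phosphatase gene UBASH3B (0.11).

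FLT3 lies on chromosome 13 at 28003274 to 28100592 (minus strand). Its levels were 73.9 and 72.2 CPM with DMSO and 24.0 and 21.3 CPM with MZ1. Both MZ1 libraries were lower, with a fold change of −1.69 ± 0.08 on the log2 scale (edgeR adjusted p = 1.73e-16), or 3.22-fold. The smaller fall of FLT3 changed the balance of the receptors: the ratio of IL7R to FLT3 in RPKM was 6.39 and 6.58 in the DMSO libraries and 1.97 and 2.39 in the MZ1 libraries. Genes nearest to FLT3 in pattern, of 4309 compared, were GOLM1, FOXM1 and DNAJC10, each with a difference of 0.02 on the log2 scale.

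The promoters of both receptors are shown because their letters differ although both transcripts fell. Each run is the 250 bases before the RefSeq start (GRCh38.p14), 5′ to 3′ on the gene's strand. Capitals mark exact matches to any of 5 motifs searched on both strands. TTCNNNGAA is the STAT or GAS site. CACGTG is the E-box bound by MYC and its relatives. CCAAT is the CCAAT box. ACTTCC is a core bound by ETS factors. TATAAA is the TATA box.
IL7R, chr5:35856641-35856890: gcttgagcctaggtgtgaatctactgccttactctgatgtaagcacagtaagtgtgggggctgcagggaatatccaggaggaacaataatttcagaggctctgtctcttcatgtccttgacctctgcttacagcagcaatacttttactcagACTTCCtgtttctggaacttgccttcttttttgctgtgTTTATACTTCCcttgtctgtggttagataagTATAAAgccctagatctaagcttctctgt
FLT3, chr13:28100577-28100826: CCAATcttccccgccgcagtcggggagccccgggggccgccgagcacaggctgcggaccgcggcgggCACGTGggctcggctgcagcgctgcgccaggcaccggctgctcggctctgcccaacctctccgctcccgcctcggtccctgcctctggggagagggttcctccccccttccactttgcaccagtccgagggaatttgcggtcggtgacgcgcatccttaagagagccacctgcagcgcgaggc
The IL7R window holds ACTTCC at −98 and −55 from the start, the TATA letters at −29, and their reverse at −60, which overlaps the second ETS match by 1 base. Its GC content is 43.6%, and its RefSeq start lies inside the longer span given above for the gene. The FLT3 window has a GC content of 72.0% and holds the E-box letters at −183 and CCAAT at −250. Across 35116 RefSeq windows of the same length, some of them overlapping, 19.5% hold ACTTCC, 2.88% hold it at least 2 times, 10.7% hold TATAAA, 6.35% hold CACGTG and 32.0% hold CCAAT. These are matches of letters in a short window and not measured binding sites.

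**Figure D2:**
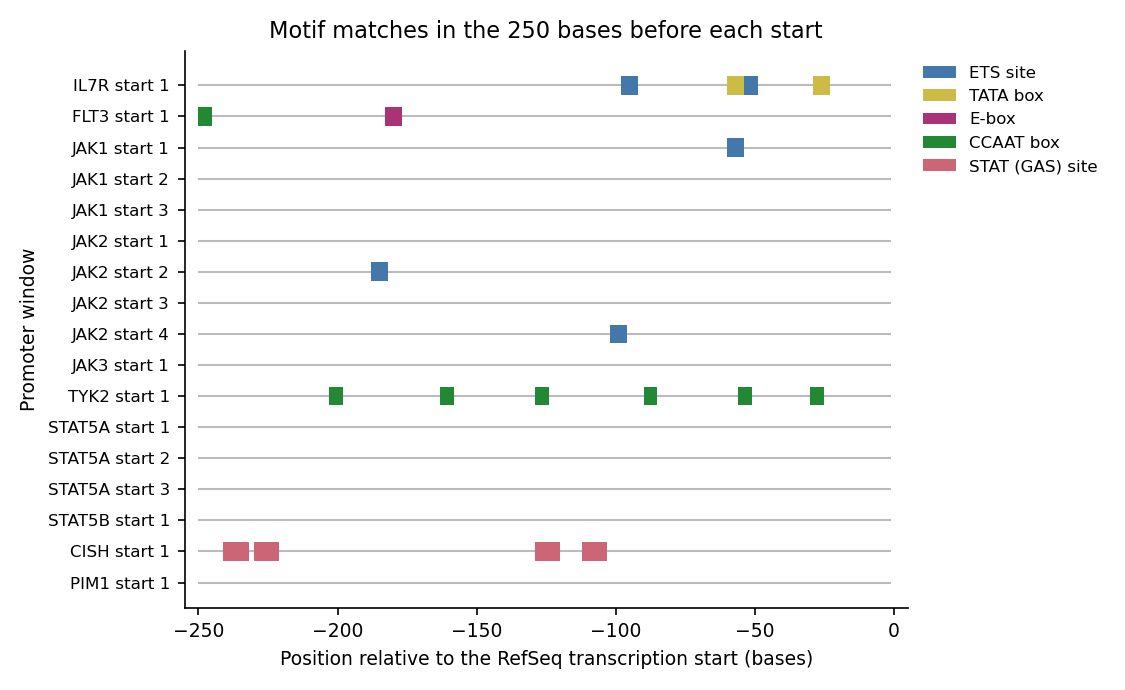
Positions of motif matches, in bases before each RefSeq start (x axis), in the 17 promoter windows of the 10 genes (rows). CISH has 4 STAT matches, TYK2 has 6 CCAAT matches, and the windows of JAK3, STAT5A, STAT5B and PIM1 hold none of the 5 motifs.

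The partner chains and ligands of these receptors gave less to measure. IL2RG, the common gamma chain that IL7R pairs with, stood at 15.03 and 16.6 CPM with DMSO and at 0.85 and 1.16 CPM with MZ1. It fell by 3.98 ± 0.23 on the log2 scale (edgeR adjusted p = 1.67e-14). Its count is uncertain, because another gene model covers 50.8% of its exons. The ratio of IL7R to IL2RG in RPKM was 20.9 and 18.9 with DMSO and 37.0 and 29.3 with MZ1. The FLT3 ligand gene FLT3LG had 2 reads in each DMSO library and 0 in each MZ1 library, too few for the test. IL7, TSLP and CRLF2 had no row in the table and are not analysed here.

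Other receptors of the same signalling class moved both ways. Of 33 listed receptors and ligands 17 were tested, of which 10 were lower, 5 higher and 2 not called, beside 41.3% lower and 42.8% higher of all tested genes. Their median log2 fold change was −1.78, beside 0.05 for all tested genes, and the difference from other genes was not tested. Genes that passed the filter only through their DMSO level had to differ, so these counts describe the tested genes alone. CSF2RB, the shared beta chain of the IL-3, IL-5 and GM-CSF receptors, fell 26.7-fold, from 22.9 ± 0.37 to 0.86 ± 0.22 CPM. PDGFRB, a receptor tyrosine kinase related to FLT3, fell 5.16-fold, from 94.9 ± 1.1 to 18.4 ± 1.8 CPM. In contrast IL3RA, the alpha chain that pairs with CSF2RB to bind interleukin-3, rose 8.77-fold, from 6.37 ± 0.33 to 55.8 ± 0.82 CPM. It lies in a region shared by the X and Y chromosomes, where copies can split reads. The interferon-gamma receptor gene IFNGR1 rose 3.45-fold, and IL6ST (gp130), the signalling chain of the interleukin-6 family, rose 2.06-fold.

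JAK1, the kinase bound to IL7R and to many other cytokine receptors, lies on chromosome 1 at 64833229 to 64966504 (minus strand). It stood at 137 and 135 CPM with DMSO and at 516 and 512 CPM with MZ1. Replicates differed by at most 1.02-fold, whereas the groups differed 3.79-fold (log2 fold change 1.92 ± 0.04; edgeR adjusted p = 7.85e-23). With MZ1 it had the highest level per length of the 10 genes, at 81.4 ± 0.44 RPKM, in place of 21.5 ± 0.23 with DMSO. Its nearest genes in pattern, of 1140 compared, were HIF1AN (0.02), GPBP1L1 (0.03) and AFF4 (0.03).

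TYK2, which serves receptors of interferons and of the interleukin-12 family, lies on chromosome 19 at 10350529 to 10380676 (minus strand). Its levels were 138 and 147 CPM with DMSO and 316 and 299 CPM with MZ1. Both MZ1 libraries were higher, by 1.11 ± 0.05 on the log2 scale (edgeR adjusted p = 4.75e-17), or 2.16-fold. The TYK2 promoter is shown for its repeated CCAAT box, a match that only 37 of the 35116 windows, or 0.105%, hold at least 6 times. Capitals mark the 6 matches.
TYK2, chr19:10380573-10380822: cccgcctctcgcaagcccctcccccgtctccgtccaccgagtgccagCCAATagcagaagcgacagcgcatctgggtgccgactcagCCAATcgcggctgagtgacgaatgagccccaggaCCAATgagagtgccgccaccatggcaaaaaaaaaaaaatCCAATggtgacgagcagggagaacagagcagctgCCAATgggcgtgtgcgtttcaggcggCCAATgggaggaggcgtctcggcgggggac
All 6 lie on the gene's own strand, from −203 to −26, and none of the other 4 motifs is present.

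JAK2, the kinase of the erythropoietin, thrombopoietin and CSF2RB receptors, lies on chromosome 9 at 4984390 to 5128183 (plus strand). It was at 12.2 and 11.8 CPM with DMSO and at 30.9 and 34.4 CPM with MZ1. The groups did not overlap and the rise was 2.73-fold (1.45 ± 0.11; edgeR adjusted p = 6.07e-12), the least precise of the JAK changes.

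JAK3, the partner of the common gamma chain, lies on chromosome 19 at 17824780 to 17848071 (minus strand). Its levels were 46.1 and 47.0 CPM with DMSO and 46.9 and 51.4 CPM with MZ1. The lower MZ1 library lay between the DMSO libraries, and the gene was not called (0.08 ± 0.07; 95% interval −0.07 to 0.23; edgeR adjusted p = 0.308). Upper-quartile scaling, which moved all genes up by a median of 0.27, gave 0.35 and a higher call (edgeR adjusted p = 1.06e-04). A filter of at least 50 counts in at least 2 libraries moved all genes by 0.17 and gave 0.25 with a higher call (edgeR adjusted p = 0.00262). Less those shifts, the JAK3 value was 0.08 in both.

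Per length, the 4 JAK transcripts together went from 51.3 ± 0.76 to 139 ± 1.4 RPKM. JAK1 made up 41.9 ± 1.1% of that sum with DMSO and 58.4 ± 0.26% with MZ1. JAK3 made up 13.3 ± 0.01% and then 5.18 ± 0.39%, and TYK2 41.0 ± 1.2% and then 32.6 ± 0.98%. JAK2 had the smallest share, between 3.57% and 4.03% in the 4 libraries, and its groups overlapped. The JAK1 to JAK3 ratio, for the kinases that work together at the interleukin-7 receptor, was 3.20 and 3.09 in the DMSO libraries and 11.9 and 10.7 in the MZ1 libraries. These shares are descriptions, with no test, and they depend on the length used: per length of the longest transcript, DMSO levels were 32.8 RPKM for TYK2 and 26.9 for JAK1.

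**Figure D3:**
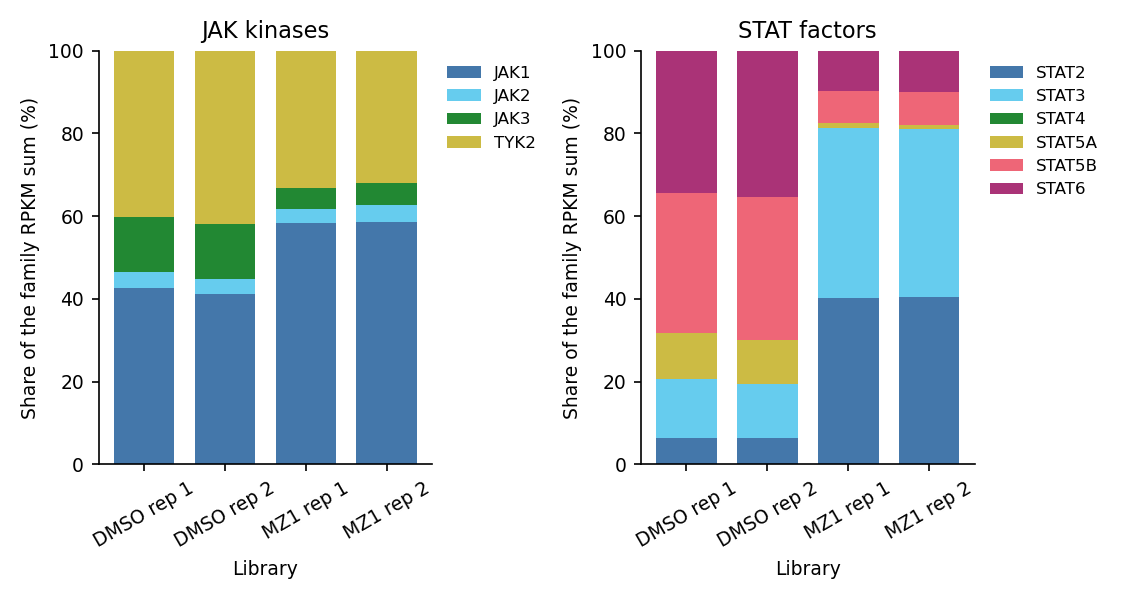
Share of each gene (%) in the summed RPKM of the JAK kinases (left) and of 6 STAT factors (right) in each of the 4 libraries. JAK1 grows from 41.9% to 58.4% of the JAK sum. STAT5A, STAT5B and STAT6 shrink while STAT2 and STAT3 reach 40.5% and 40.7% of the STAT sum.

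STAT5A and STAT5B are near-identical transcription factors encoded side by side on chromosome 17, STAT5B at 42199168 to 42276707 (minus strand) and STAT5A at 42287547 to 42311943 (plus strand). Their sequence likeness means that the counting could split or drop reads between them, so single values are uncertain. STAT5A stood at 48.3 and 47.1 CPM with DMSO and at 8.91 and 6.14 CPM with MZ1. Its MZ1 replicates differed 1.45-fold, the widest replicate gap of the 10 genes, yet both lay far below DMSO (−2.66 ± 0.12; edgeR adjusted p = 1.52e-16), a 6.33-fold fall. STAT5B stood at 165 and 171 CPM with DMSO and at 58.8 and 58.0 CPM with MZ1. It fell 2.88-fold (−1.53 ± 0.05; edgeR adjusted p = 6.11e-19), with MZ1 replicates only 1.01-fold apart.

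STAT5B was thus the main STAT5 transcript with both treatments, and its excess over STAT5A grew. The STAT5B to STAT5A ratio in RPKM was 3.05 and 3.25 in the DMSO libraries and 5.89 and 8.42 in the MZ1 libraries. The 95% intervals of the log2 fold changes were −2.91 to −2.41 for STAT5A and −1.64 to −1.42 for STAT5B, so they did not overlap, but no exact test over 2 libraries against 2 can pass 0.05. Of 3799 genes compared, those nearest to STAT5A in pattern were JADE2 (0.05), TRMT2B (0.06) and GPR161 (0.06).

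Of the other STAT genes described here, STAT2 and STAT3 rose, STAT6 fell and STAT4, at 0 to 3 reads per library, was not tested. STAT2, which acts downstream of type I interferon, rose 9.75-fold, from 28.9 and 29.6 CPM to 291 and 279 CPM. STAT3, the factor of interleukin-6 type cytokines, rose 4.52-fold, from 94.99 and 88.7 CPM to 426 and 403 CPM. STAT6, which serves interleukin-4, fell 2.33-fold, from 189 and 198 CPM to 83.8 and 81.9 CPM.

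As a share of the summed RPKM of 6 STAT genes (STAT2, STAT3, STAT4, STAT5A, STAT5B and STAT6), STAT5B went from 34.3 ± 0.47% to 7.84 ± 0.19% and STAT5A from 10.9 ± 0.34% to 1.13 ± 0.26%. STAT6 went from 34.8 ± 0.67% to 9.83 ± 0.17%. STAT3 went from 13.7 ± 0.85% to 40.7 ± 0.26% and STAT2 from 6.29 ± 0.03% to 40.5 ± 0.15%. The ratio of STAT3 to the sum of STAT5A and STAT5B was 0.32 and 0.29 in the DMSO libraries and 4.54 and 4.55 in the MZ1 libraries. The balance between STAT5 and STAT3 transcripts therefore turned to STAT3 in each MZ1 library, while the STAT2 share came to equal that of STAT3 closely. As for the JAK genes, these shares are descriptions, with no test, and depend on the length used.

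STAT3 is also the nearest tested protein-coding neighbour of STAT5A, 1380 bases beyond its end and on the opposite strand, while STAT5B lies 10839 bases before its start. Adjacent genes of this cluster thus moved in opposite directions: STAT5B and STAT5A fell and STAT3 rose. GHDC, on the far side of STAT5B, fell by 0.92 ± 0.15 on the log2 scale. The other neighbours are the nearest tested protein-coding genes, some of them far away, and untested genes can lie between. At JAK1, the overlapping gene RAVER2 fell by 1.32 ± 0.08. AK4, an adenylate kinase gene 181044 bases from JAK1, fell by 4.70 ± 0.13. RCL1, 98472 bases from JAK2, fell by 2.34 ± 0.12. PLGRKT, 229789 bases beyond JAK2, and CACHD1, 140170 bases from JAK1, did not pass the test. CAPSL, 24691 bases from IL7R, fell by 3.09 ± 0.55, from a low level of 1.84 CPM to 0.21 CPM. DNAJC21, 893730 bases away on the other side of IL7R, fell by 0.35 ± 0.07. Both FLT3 neighbours rose, POLR1D (259036 bases away) by 0.67 ± 0.05 and PAN3 (37913 bases away) by 0.18 ± 0.05. The tested neighbours of TYK2, ICAM3 and CDC37, did not pass the test, at 0.18 ± 0.51 and −0.03 ± 0.05.

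CISH, an inhibitor that binds activated cytokine receptors and a textbook STAT5 target, lies on chromosome 3 at 50606490 to 50611831 (minus strand). It had 24 and 27 reads in the DMSO libraries and 23 and 25 in the MZ1 libraries, or 1.47 and 1.59 CPM against 1.63 and 1.81 CPM. Although both MZ1 values lay above both DMSO values, the difference did not pass the test (0.17 ± 0.37; edgeR adjusted p = 0.677). The 95% interval of the log2 fold change, −0.59 to 0.92, leaves changes in either direction possible at this depth. The gene shares 4.26% of its exonic length with MAPKAPK3, which fell by 3.76 ± 0.13, and reads of the 2 cannot be told apart there.

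The CISH promoter is shown because it carries 4 matches to TTCNNNGAA, the letters that STAT5 dimers prefer. That motif reads the same on both strands, and capitals mark it.
CISH, chr3:50611775-50612024: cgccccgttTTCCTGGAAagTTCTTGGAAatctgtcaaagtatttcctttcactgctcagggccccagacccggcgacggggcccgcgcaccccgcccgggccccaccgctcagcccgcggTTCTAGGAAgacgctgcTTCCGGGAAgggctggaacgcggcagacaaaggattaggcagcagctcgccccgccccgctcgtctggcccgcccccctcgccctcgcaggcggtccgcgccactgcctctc
The matches are TTCCTGGAA at −241, TTCTTGGAA at −230, TTCTAGGAA at −129 and TTCCGGGAA at −112 from the RefSeq start. Of all 35116 windows 6.57% hold at least 1 match, 125 hold at least 2 and 5 hold 4, the most in any window. Of the 17 windows of the 10 genes CISH was the only one with a match, so the PIM1 window holds none, which says only that these letters are not within 250 bases before its start.

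PIM1, a serine/threonine kinase that promotes survival and growth of blood cells, lies on chromosome 6 at 37170203 to 37175426 (plus strand). It stood at 11.9 and 11.7 CPM with DMSO and at 24.0 and 22.8 CPM with MZ1. Both MZ1 libraries were higher, by 0.99 ± 0.12 on the log2 scale (edgeR adjusted p = 2.62e-08), or 1.99-fold. Its family moved the same way: PIM2 rose 3.31-fold, from 16.6 ± 1.5 to 54.9 ± 1.3 CPM, and PIM3 1.62-fold, from 115 ± 0.58 to 185 ± 1.6 CPM. PIM3 made up 82.4 ± 0.64% of the summed PIM RPKM with DMSO and 73.1 ± 0.71% with MZ1, and PIM1 6.99 ± 0.16% and 7.64 ± 0.27%. Genes nearest to PIM1 in pattern, of 3629 compared, were HIC1 (0.01), PPM1B (0.02) and ZNF324 (0.02).

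The levels per length were therefore reordered. With DMSO the order was IL7R, STAT5B, JAK1, TYK2, FLT3, STAT5A, JAK3, PIM1, JAK2 and CISH, from 114 to 0.30 RPKM, and only the neighbours JAK1 and TYK2 overlapped in their replicates. With MZ1 it was JAK1, TYK2, IL7R, STAT5B, PIM1, JAK3, FLT3, JAK2, STAT5A and CISH, from 81.4 to 0.34 RPKM, and only FLT3 and JAK2 overlapped. With the longest transcript as the length, TYK2 stood above JAK1 with DMSO, and with MZ1 JAK3 (9.05 RPKM) stood above PIM1 (8.85) and JAK2 (6.18) above FLT3 (5.90).

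**Figure D4:**
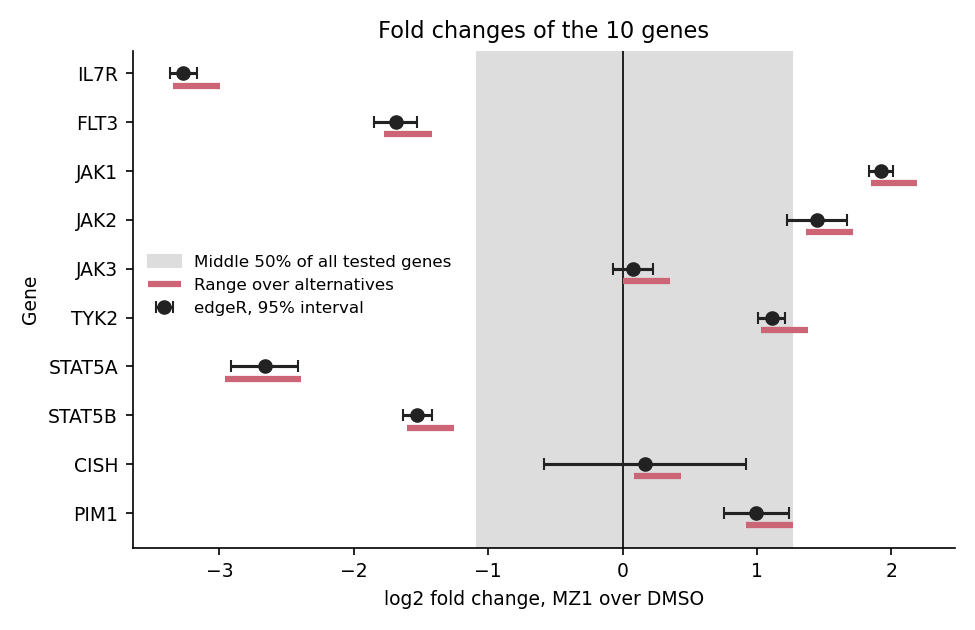
Log2 fold change (MZ1 over DMSO, x axis) of each gene with its 95% interval (black), and in red the range over 12 alternatives (11 for CISH), beside the middle 50% of all tested genes (grey). IL7R, STAT5A, FLT3 and STAT5B lie below that band, JAK1 and JAK2 above it, and TYK2, PIM1, CISH and JAK3 within it.

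Known STAT5 targets other than CISH and PIM1 split. Of 22 listed, 16 were tested, with 9 higher and 7 lower, beside 42.8% higher and 41.3% lower of all tested genes. Their median log2 fold change was 0.45, beside 0.05 for all tested genes. Genes that passed the filter only through 1 group, such as CCND1 and TNFRSF13B, had to differ. The list holds genes that STAT5 activates and some that it represses, so its counts have no single direction of STAT5 activity. The survival gene MCL1 rose 3.99-fold and the CDK inhibitor gene CDKN1A 4.09-fold. MYC fell by 6.45 ± 0.07 on the log2 scale, CCND3 by 3.27 ± 0.04 and the survival gene BCL2 by 2.96 ± 0.07. CCND1 had 2 DMSO reads and 107 MZ1 reads, a ratio of 63.7 (exact 95% counting interval 17.2 to 533), and TNFRSF13B, with 0 MZ1 reads, was at least 9.84-fold lower than its DMSO level when set against a floor of 3 counts over the group. DUSP6 lost its call in 5 of 12 alternatives and ID1 in 5 of the 11 that tested it. DESeq2 called 6 of the list higher and 7 lower, without ID1, DUSP6 and the cytokine gene OSM.

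Negative regulators of cytokine signalling moved both ways. Of 19 tested 10 were higher and 9 lower, beside 42.8% higher and 41.3% lower of all tested genes. Their median log2 fold change was 0.27, beside 0.05 for all tested genes. SOCS1, which blocks JAK catalytic activity and is itself induced by cytokines, rose from 5.19 and 5.25 CPM to 65.7 and 56.8 CPM, or 11.7-fold (edgeR adjusted p = 1.17e-19). It was the largest rise in the list, whereas its relative SOCS2 fell 3.43-fold, from 9.35 and 7.61 CPM to 1.98 and 2.96 CPM. SOCS1, SOCS2 and the repressor gene BCL6 are the 3 tested genes counted both here and among the STAT5 targets. In RPKM SOCS1 exceeded CISH, of the same SOCS family, by 10.1 and 9.38 times in the DMSO libraries and by 115 and 89.5 times in the MZ1 libraries. PIAS1, an inhibitor of STAT signalling, rose 3.50-fold, although other genes cover 32.3% of its exons, and the phosphatase gene PTPN1 rose 1.77-fold. The largest falls were in phosphatases of blood cells. PTPN6 (SHP-1) fell from 95.5 and 104.8 CPM to 5.38 and 6.87 CPM, or 16.4-fold, and PTPRC (CD45) from 147 and 137 CPM to 11.03 and 11.1 CPM, or 12.8-fold. PTPN2, which acts on JAK1, JAK3 and STAT5, fell 1.62-fold.

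**Figure D5:**
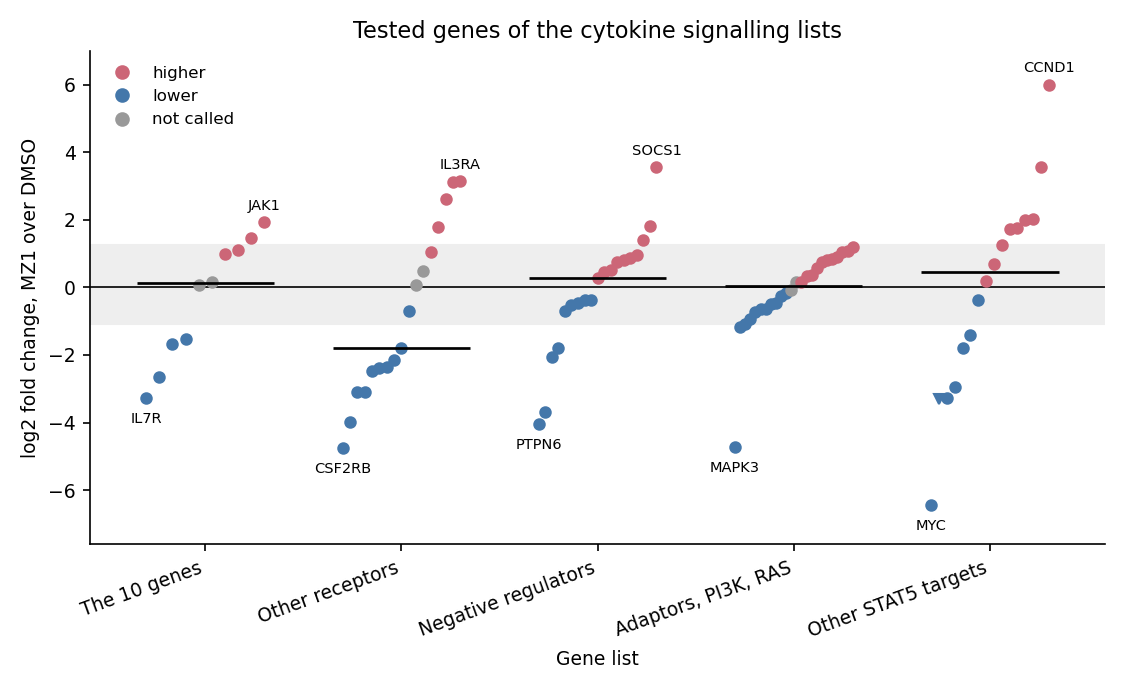
Log2 fold change of every tested gene of each list (points; red higher, blue lower, grey not called), with the list's median as a line and the middle 50% of all tested genes as a grey band. The triangle is TNFRSF13B at its bound, CCND1 rests on 2 DMSO reads, and of the 5 lists plotted the other receptors have the lowest median, −1.78.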

How the data were processed

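Deposited values were raw read counts per gene for 4 libraries, under Ensembl IDs, per the file headers and their whole-number values. Per the submitters' processing notes, HISAT2 2.2.0 and the hg38 build were used. Per the labels' protocols, TRIzol RNA and a TruSeq RNA kit were used. Which program, annotation and strand setting produced the counts is not given in the sources. Positions, exon lengths and overlaps came from GENCODE release 29 (GRCh38), which held all 28814 IDs. The gene name table supplied symbols for 28597. Promoters came from RefSeq (GRCh38.p14), where all 10 genes matched.

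The test was edgeR 4.0.16 in R 4.3.3 (filterByExpr by group, TMM, glmQLFit and glmQLFTest, treatment as the only term, Benjamini-Hochberg adjustment over 16862 genes, calls below 0.05). Each standard error is the unshrunk log2 fold change over the root of its F statistic. RPKM is TMM-normalised CPM per kilobase of merged exons. For genes with 0 reads in a group, bounds used 3 counts over the group. Intervals from counts cover counting error only. The fit was tested on simulated data. Replicates differed by more than sampling noise (chi-square over its degrees of freedom: DMSO 2.44, MZ1 2.17, genes with at least 10 reads).

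The genes and lists were chosen with earlier results of these data known. The text names all 10 genes, up to 3 genes per list and direction with the smallest adjusted p (all of lists of 9 or fewer), receptor partners and ligands, neighbours, and the 3 genes nearest in centred log2 (CPM + 0.5) among genes within 1 log2 unit of mean level. PIM2, PIM3, CCND1, TNFRSF13B, ID1, DUSP6, OSM, SOCS2, BCL6, AKT1 and the marker genes were named after their values were seen. Some genes that this rule names are not reported here.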

Additional observations from a re-analysis of the deposited data

How the results depend on the processing

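Upper-quartile and library-total scaling, TMM without mitochondrially encoded and histone genes, DESeq2 1.42.0, limma-voom 3.58.1, no count filter, a stricter one (at least 50 counts in at least 2 libraries), a replicate block and each library left out were run. The calls and directions of all 10 genes held in each, except that JAK3 was called higher with upper-quartile scaling and the stricter filter, for 5 higher in place of 4. CISH did not enter the stricter filter. Without single libraries, fits with 1 library in a group assume that it varies like the others, and 4 genes stayed higher and 4 lower each time. The widest range among these was that of STAT5A, −2.96 to −2.42. Over all genes the calls were 6901 to 7005 higher and 6658 to 6684 lower without single libraries. Same-numbered replicates did not deviate together (correlation 0.01), and the replicate block gave 4 higher and 4 lower of the 10 and 7107 higher and 6856 lower of all genes. Upper-quartile scaling gave 8304 higher and 5880 lower, so higher calls were a larger share of all calls than the 7222 against 6969 of the main analysis. With the longest transcript as length, DMSO levels were 149 RPKM for IL7R, 32.8 for TYK2, 33.0 for STAT5B and 26.9 for JAK1, so TYK2 overtook JAK1. Near the floor, as for CISH, depth limits the fold change.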

Other observations

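Adaptors and effectors that carry IL7R and FLT3 signals to the PI3K and RAS pathways split evenly, with 11 of 24 tested higher and 11 lower. Of all tested genes 42.8% were higher and 41.3% lower. The list's median log2 fold change was 0.05, as for all tested genes. With upper-quartile scaling 14 were higher and 9 lower. MAPK3 (ERK1) fell from 54.2 and 52.9 CPM to 1.91 and 2.17 CPM, or 26.3-fold (edgeR adjusted p = 1.33e-20). AKT2 fell 2.23-fold, from 215 ± 7.0 to 96.6 ± 1.6 CPM. AKT1 was called lower by 0.16 ± 0.05 but higher by 0.11 with upper-quartile scaling. PIK3CD, the leukocyte PI3K catalytic subunit, rose 1.87-fold, from 175 ± 3.8 to 327 ± 8.3 CPM.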
